A study of Homo sapiens with 16 samples.

Results

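The hypoxia response and glycolysis genes are a list of 35 human genes that covers glucose transporters, the enzymes that turn glucose into lactate, and targets of the hypoxia-inducible factors. They were taken by name from the 28207 human genes of the files, and all 35 were found. No filter on their values was used, but the list was chosen with earlier results of these data known. The RNA came from U2OS, an osteosarcoma (bone tumour) line of human origin, and its 16 libraries fall into 8 groups of 2. The groups are labelled by a number, zdna1, zdna2, zdna3 or zdna4, and by an arm, CC or CL. The labels give these codes as the genotype and do not spell out what they stand for. The series title names MYC, FACT and Z-DNA formation. All groups share the cell line, the RNA extraction and the library kit, and no treatment or time is given. Each library was counted against the human genome plus 1 extra sequence named after its number, and nothing says whether the replicates came from separate cultures. The p-values therefore measure only the spread between these libraries, which may be technical.

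Glycolysis splits glucose into pyruvate, and lactate dehydrogenase turns pyruvate into lactate when oxygen is short or in many tumour cells even when it is not. When oxygen falls, the hypoxia-inducible factors HIF1A and EPAS1 escape degradation, pair with ARNT and bind DNA that carries the core letters ACGTG or GCGTG, and they raise glucose transporters, glycolytic enzymes, angiogenic factors and mitophagy genes. MYC binds the related E-box CACGTG and is known to raise several of the same enzymes, LDHA among them.

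The promoter letters of 5 members are shown as examples from the genes that carry the differences described below or dominate the reads. Others of these, such as SLC2A1, HK1, PKM and ENO1, are not shown. The windows of SLC2A1 and PKM held no ACGTG and had GCGTG only after the start site, while that of ENO1 had GCGTG before it. The shown stretches, which all hold a match, therefore do not stand for all genes that differed. RefSeq promoter windows (GRCh38.p14, 250 bases before to 50 after a start site) were matched for 31 of the 35 members, with 59 windows. The names not matched were NDRG1, BNIP3L, SLC2A3 and VEGFA. HK2, LDHA and TPI1 each had another window that is not shown, and that of TPI1 held neither ACGTG nor GCGTG. Each line runs 5′ to 3′ on the gene's strand, lies before the start site and leaves out bases that an annotated exon covers. Capitals mark ACGTG or GCGTG read on either strand, so that the reverse strand appears as CACGT or CACGC.
DDIT4, chr10:72273674-72273919, plus strand: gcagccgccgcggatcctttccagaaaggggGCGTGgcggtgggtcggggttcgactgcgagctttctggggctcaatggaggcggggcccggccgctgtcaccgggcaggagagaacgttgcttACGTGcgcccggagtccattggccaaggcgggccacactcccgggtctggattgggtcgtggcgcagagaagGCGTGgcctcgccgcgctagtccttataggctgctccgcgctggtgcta
HK2, chr2:74834920-74835169, plus strand: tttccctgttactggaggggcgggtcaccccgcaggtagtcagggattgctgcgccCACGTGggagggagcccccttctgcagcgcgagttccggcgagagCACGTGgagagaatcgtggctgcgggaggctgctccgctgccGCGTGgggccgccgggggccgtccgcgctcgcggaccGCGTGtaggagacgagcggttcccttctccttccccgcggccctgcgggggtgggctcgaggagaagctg
TPI1, chr12:6867855-6868099, plus strand: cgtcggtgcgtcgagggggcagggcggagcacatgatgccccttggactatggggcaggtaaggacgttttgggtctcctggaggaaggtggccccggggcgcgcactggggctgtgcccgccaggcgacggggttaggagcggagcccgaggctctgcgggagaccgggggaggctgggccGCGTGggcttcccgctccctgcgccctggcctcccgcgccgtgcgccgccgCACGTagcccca
GAPDH, chr12:6535142-6535263, plus strand: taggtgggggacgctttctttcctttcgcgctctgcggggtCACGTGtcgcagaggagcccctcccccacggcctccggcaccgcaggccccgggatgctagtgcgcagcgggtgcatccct
LDHA, chr11:18394313-18394387, plus strand: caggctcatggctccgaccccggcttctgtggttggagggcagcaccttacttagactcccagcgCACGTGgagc

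The motif ACGTG, searched on both strands, occurred in 42.4% of the 59 member windows and in 21.4% of all 35116 windows of the same length. Of the 31 matched members, 20 had it in at least 1 window, where 24.9% of all 27305 genes did. The 31 members had 59 windows and the 27305 genes 35116, and more windows per gene leave more room for a match. ACGTG or GCGTG occurred in 67.8% of member windows against 48.4% of all windows. The palindrome CACGTG contains ACGTG on both strands, so each copy counts as 2 matches of ACGTG. It stood in 13.6% of member windows against 7.26% of all windows. Of the 31 matched members 8 had it, HK2, LDHA and GAPDH among them, where 8.77% of all genes did. None of the 7 HK1 windows held ACGTG, while both HK2 windows did. The alternating runs GCGCGC or CGCGCG, overlapping motifs of the kind that can adopt the Z form, occurred in 37.3% of member windows and in 22.5% of all windows. These matches describe letters and not sites of binding.

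The libraries were shallow. Reads on human genes ranged from 39335 in zdna4 CC replicate 1 to 310187 in zdna4 CL replicate 1, so that 1 read stood for 3.22 to 25.4 CPM (the usual unit of reads scaled to the library's total, here its human-gene reads). Levels of single genes below are CPM after TMM scaling, a correction for differences in library make-up, except the pooled reads of a number, which are unscaled. The 4 zdna3 libraries held 42494 to 83269 reads and the 4 zdna1 libraries 111166 to 170980. The summed level of 401 olfactory receptor genes, which bone tumour cells are not known to use, was 1471 ± 30.3 CPM (SD, n = 2) in zdna4 CC and between 55.3 and 396 CPM in the other 14 libraries, so the zdna4 CC libraries stood apart. The 6 mesenchymal markers summed to 4129 to 5980 CPM in every library, although COL1A2 was at 0 in 9 of 16 libraries, and the summed epithelial, blood and neural markers each stayed at or below 36.5 CPM. The 3 endothelial markers summed to 107 CPM on average in zdna4 CC and 74.4 CPM in zdna3 CC, against 17.4 CPM or less in the other groups. Where zdna3 or zdna4 CC enters a result, the part that depth, olfactory receptor reads or endothelial reads play in it was not tested unless a value is given.

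The 35 genes took 1.34% to 1.80% of the human-gene reads of a library. Their share averaged 1.73 ± 0.0781% (SD, n = 4) in zdna1, 1.53 ± 0.0836% in zdna2, 1.46 ± 0.0465% in zdna3 and 1.43 ± 0.0897% in zdna4, and the share in every zdna1 library was 1.63% or more. Most of these reads came from the payoff steps of glycolysis and from lactate formation. GAPDH, the glyceraldehyde-3-phosphate dehydrogenase, PKM, the last kinase of the pathway, ENO1, an enolase, and LDHA, the lactate dehydrogenase subunit that favours lactate formation, together held 66.8% to 76.8% of the reads of the 35 genes. Per kilobase of exon, GAPDH stood at 2587 ± 315 CPM (SD over 16 libraries) and was followed by PKM at 799 ± 72.9, ENO1 at 722 ± 76.6, LDHA at 494 ± 76.2, TPI1 at 290 ± 54.3 and LDHB at 243 ± 51.5. The difference between PKM and ENO1, like that between TPI1 and LDHB, was smaller than the sum of their SDs. Among the hypoxia targets outside glycolysis, NDRG1 led with 99.1 ± 38.6 CPM per kilobase and DDIT4 came next with 82.1 ± 49.8.

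**Figure D1:**
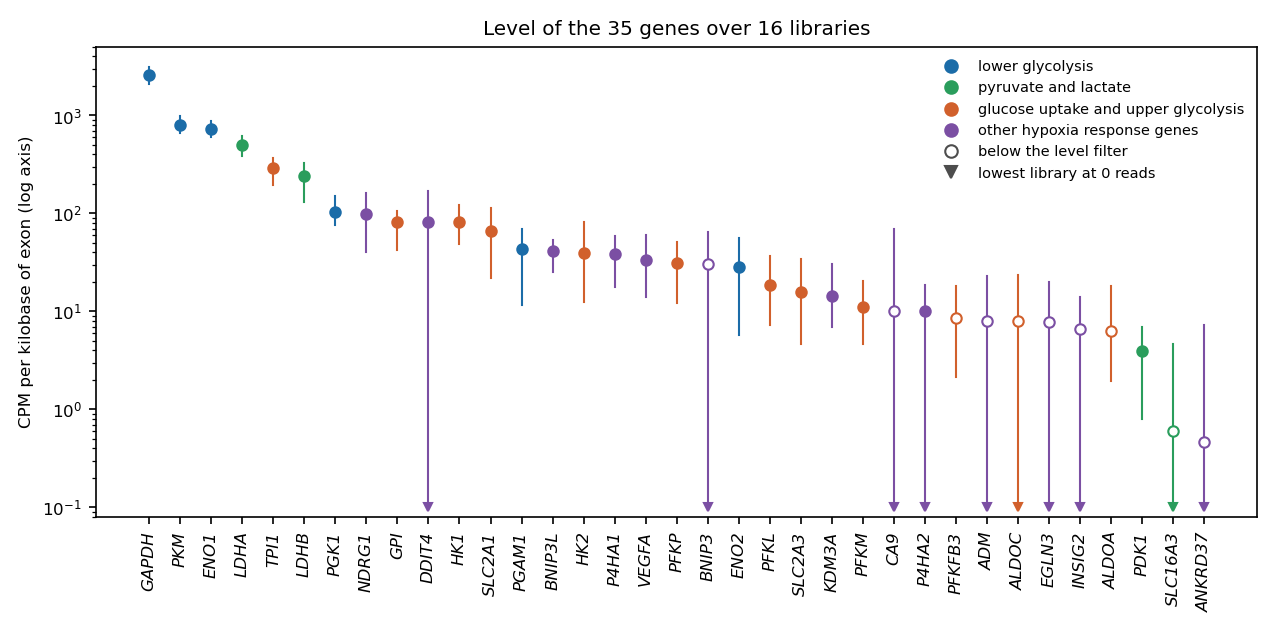
Level of each of the 35 genes in CPM per kilobase of exon, on a log axis, ordered by the mean over 16 libraries. Points are means, lines run from the lowest to the highest library, triangles mark a lowest library at 0 reads, colours give the role and open points mark the 10 genes below the level filter. GAPDH stood at 2587 CPM per kilobase and ANKRD37 at 0.459.

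The tests covered the 4632 genes that averaged 50 CPM or more over the 16 libraries, and 25 of the 35 members passed that filter. Each member was tested with limma on log2(CPM + 10) after TMM scaling, with Benjamini-Hochberg adjustment over the 4632 genes within each of 13 comparisons. Fold changes below are on that log2(CPM + 10) scale, which understates the change of low genes. Of the 25 members, 11 passed adjusted p under 0.05 in at least 1 comparison. Comparisons that involve the same number share its libraries, so their values stand side by side and are not independent.

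Between the 4 numbers, averaged over the arms, 9 of the 25 members differed in the test of any difference, where 8.85% of all genes did. They were SLC2A1, HK1, HK2 and TPI1 of uptake and upper glycolysis, ENO1 and PKM of lower glycolysis, and NDRG1, DDIT4 and VEGFA of the hypoxia targets. Most of the large differences set zdna3 apart: it had less DDIT4, SLC2A1, HK2 and NDRG1 than zdna1, and less DDIT4, HK2, VEGFA and SLC2A1 than zdna2. HK1 was higher in zdna3 than in zdna2 by its share of reads and lower on the scale as deposited. In bulk RNA, fewer cells that use a gene and less of its RNA per cell cannot be told apart. A milder set of glycolytic enzymes, TPI1, HK1, PKM and ENO1, was lower in zdna2 than in zdna1.

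In zdna3 over zdna1, 5 of 25 members fell and none rose, against 2.27% of all genes lower and 2.22% higher. The fitted difference was below 0 for 22 of the 25, with a median of -0.39 against -0.05 over all genes tested. By role, the count that fell was 2 of 9 for uptake and upper glycolysis, 0 of 6 for lower glycolysis, 1 of 3 for pyruvate and lactate, and 2 of 7 for the other hypoxia targets. On the scale as deposited all 25 members were called lower, as were 4417 of the 4632 genes, while 4 genes were called higher, and the median of all genes there was -1.48. The 4 zdna3 libraries lay entirely below the 4 zdna1 libraries for 8 members (4.71% of all genes) and entirely above them for 1 member, HK1 (5.14% of all genes).

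DDIT4 encodes an inhibitor of mTORC1 signalling that stress and low oxygen induce, and it showed the largest difference of the list. Its level was 213 and 211 CPM in zdna1 CC, 293 and 209 in zdna1 CL, 146 and 214 in zdna2 CC, 112 and 126 in zdna2 CL, 108 and 185 in zdna4 CC, and 128 and 246 in zdna4 CL. The zdna3 libraries had 35.7 and 0 CPM (CC) and 39.8 and 24.3 CPM (CL). These zdna3 values come from 2, 0, 3 and 2 reads, and all 4 lay below each of the other 12 libraries. DDIT4 fell by 3.01 (SE 0.34) in zdna3 over zdna1 (limma adjusted p = 5.88e-09) and by 2.38 (SE 0.35) over zdna2 (limma adjusted p = 1.12e-06). It was 2.51 (SE 0.41) higher in zdna4 than in zdna3 (limma adjusted p = 3.0e-05). In pooled reads, 136 of zdna1 against 7 of zdna3, the ratio of the rates was 8.67 (95% exact interval 4.09 to 22.0, counting error only). The difference held in either arm alone, at -3.38 (adjusted p = 3.86e-05) in CC and -2.64 (adjusted p = 2.9e-05) in CL for zdna3 over zdna1.

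SLC2A1, the basal glucose transporter GLUT1, was the next largest of the called differences with zdna1. Its level was 266 and 348 CPM in zdna1 CC, 384 and 247 in zdna1 CL, 284 and 237 in zdna2 CC and 188 and 223 in zdna2 CL. In zdna3 it was 125 and 143 CPM (CC) and 119 and 73.0 CPM (CL). In zdna4 it was 324 and 317 CPM (CC) and 99.2 and 152 CPM (CL). All zdna3 libraries lay below all zdna1 and zdna2 libraries, while zdna4 split by arm, its CC libraries within the range of zdna1 and its CL libraries below every zdna1 and zdna2 library. SLC2A1 fell by 1.37 (SE 0.25) in zdna3 over zdna1 (limma adjusted p = 1.1e-04) and by 0.98 (SE 0.25) over zdna2 (adjusted p = 0.00884). The call against zdna2 was lost without zdna3 CC replicate 1 (adjusted p = 0.0525) or zdna3 CL replicate 2 (adjusted p = 0.0781). The other transporter tested, SLC2A3, the high-affinity GLUT3, ranged from 17.8 to 132 CPM with a median of 54.2 and was called in none of the 13 comparisons.

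The 2 hexokinases, which trap glucose in the cell, differed in sign between zdna3 and zdna2 after scaling to the reads, but not on the scale as deposited, where both were lower in zdna3. HK2, the inducible form, stood at 107, 71.4, 133 and 195 CPM in the zdna3 libraries, against 301, 234, 237 and 190 in the zdna1 libraries and 276, 336, 230 and 326 in the zdna2 libraries. It fell by 1.21 (SE 0.24) in zdna3 over zdna2, where the groups did not overlap (limma adjusted p = 5.3e-04), and by 0.94 (SE 0.24) over zdna1, where 1 library overlapped (adjusted p = 0.0102). The second call was lost without zdna1 CC replicate 1, zdna3 CC replicate 2 or zdna3 CL replicate 1 (adjusted p = 0.0545, 0.134 and 0.0875). In the CC arm alone HK2 was lower by -1.50 in zdna3 over zdna1 (adjusted p = 0.0256), and in the CL arm alone the difference was -0.38 (adjusted p = 0.625). HK1, the constitutive form, stood at 499, 524, 583 and 487 CPM in zdna3. It was 390, 416, 461 and 393 CPM in zdna1, 316, 237, 314 and 326 in zdna2, and 351, 370, 282 and 295 in zdna4, so each zdna3 library lay above the other 12. HK1 was 0.80 (SE 0.17) higher in zdna3 than in zdna2 (limma adjusted p = 0.00181) and 0.68 (SE 0.21) lower in zdna4 than in zdna3 (adjusted p = 0.0435), but on the scale as deposited both differences had the opposite sign, -0.70 and 0.88. On that scale the median of all genes was -1.36 in zdna3 over zdna2 and 1.38 in zdna4 over zdna3. The fall in zdna4 was lost in 7 of the 16 fits that left out 1 library, with adjusted p up to 0.162, and the rise over zdna2 in none. HK1 was also lower in zdna2 than in zdna1, by -0.47 (SE 0.13; adjusted p = 0.0323), and 6 of the 16 fits lost that call, with adjusted p up to 0.216 without zdna2 CC replicate 2.

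The ratio of HK2 to HK1 reads does not depend on the scaling. It ranged from 0.484 to 0.773 in the 4 zdna1 libraries, from 0.733 to 1.42 in zdna2, from 0.136 to 0.400 in zdna3 and from 0.364 to 1.29 in zdna4. The zdna3 range lay below those of zdna1 and zdna2 and overlapped that of zdna4 at 1 library, zdna4 CL replicate 1 at 0.364, while zdna4 CL replicate 2 at 0.470 lay above it. The zdna3 ratios rested on 6, 3, 10 and 16 reads of HK2. The ratio of LDHA to LDHB reads, the lactate-forming over the other lactate dehydrogenase subunit, ranged from 3.68 to 4.52 in zdna1, from 2.75 to 4.54 in zdna2, from 2.07 to 3.32 in zdna3 and from 3.02 to 6.50 in zdna4. Its highest values, 6.50 and 6.38, were those of zdna4 CC, where LDHB rested on 8 reads in each library.

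**Figure D2:**
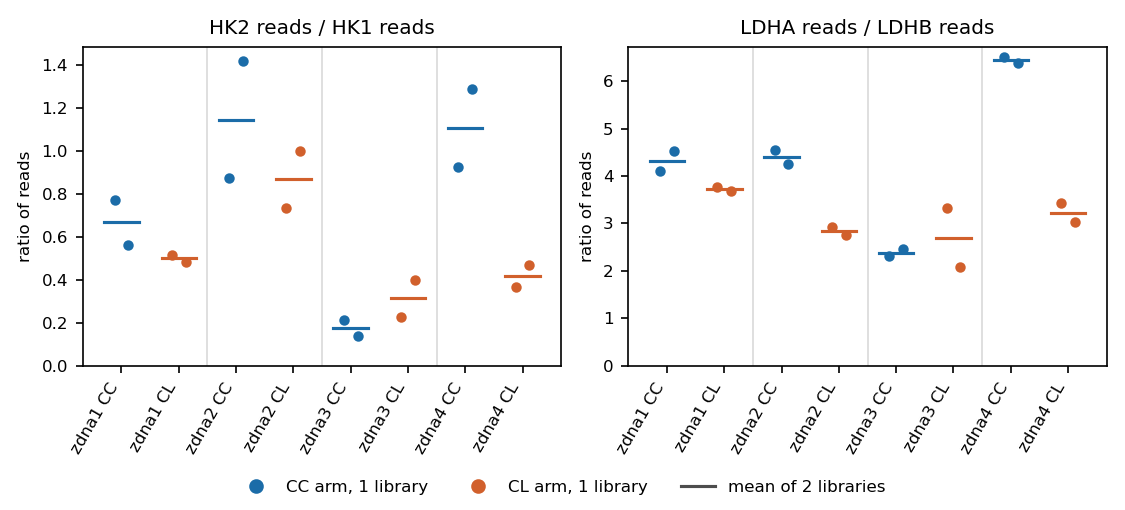
Ratio of HK2 to HK1 reads (left) and of LDHA to LDHB reads (right) in each of 16 libraries, with the mean of 2 libraries as a line. The zdna3 libraries had HK2 to HK1 ratios of 0.136 to 0.400, and zdna4 CC had LDHA to LDHB ratios of 6.38 and 6.50.

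NDRG1, a differentiation and stress gene strongly induced by hypoxia, stood at 461, 468, 419 and 425 CPM in zdna1 and at 250, 143, 318 and 280 CPM in zdna3, with no overlap. It fell by 0.87 (SE 0.20) in zdna3 over zdna1 (limma adjusted p = 0.00299). Without zdna3 CC replicate 2 the adjusted p was 0.121, and by arm the difference was -1.25 in CC (adjusted p = 0.0204) and -0.49 in CL (adjusted p = 0.342). LDHA stood at 1419, 1545, 1606 and 1515 CPM in zdna1 and at 1070, 1167, 1366 and 1083 in zdna3, also without overlap. It fell by 0.38 (SE 0.11; limma adjusted p = 0.0228), and 5 of 16 fits that left out 1 library lost the call, with adjusted p up to 0.168 without zdna3 CL replicate 2. VEGFA, the main angiogenic growth factor, stood at 53.5, 71.4, 79.6 and 97.3 CPM in zdna3 and at 170, 229, 154 and 143 in zdna2. It fell by 1.11 (SE 0.30) in zdna3 over zdna2 (limma adjusted p = 0.0154), and against zdna1, at 213, 188, 133 and 101 CPM, the difference of -0.95 missed the threshold (adjusted p = 0.0517). The call was lost in 4 of 16 fits that left out 1 library, with adjusted p up to 0.0878 without zdna3 CC replicate 1. In zdna3 over zdna2, 4 members in all fell and 1 rose, where 3.2% of all genes fell and 2.81% rose, and the median of the 25 was -0.17 against -0.04 over all genes. On the scale as deposited all 25 were called lower, as were 4261 genes against 8 higher.

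**Figure D3:**
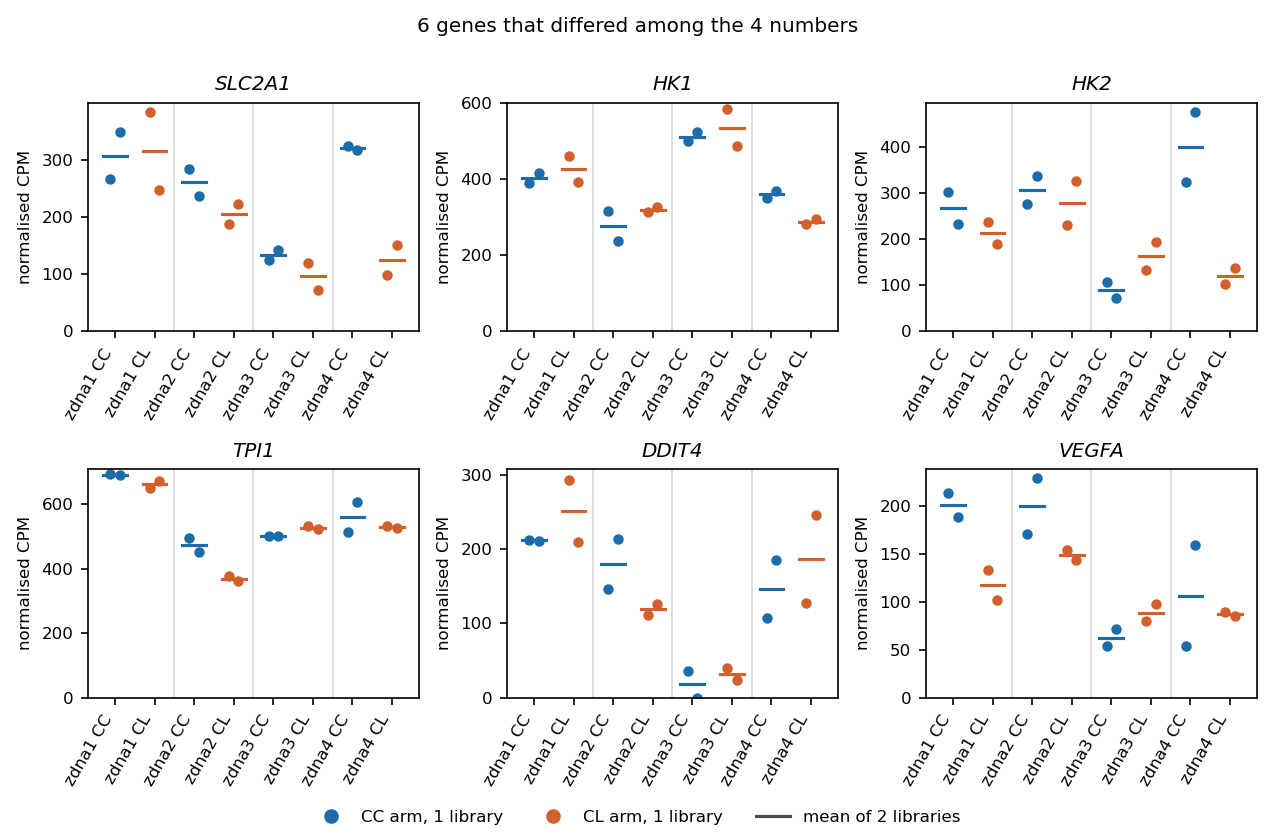
Normalised CPM of SLC2A1, HK1, HK2, TPI1, DDIT4 and VEGFA in each library, with the mean of 2 libraries as a line, by number and arm. DDIT4 lay at or below 39.8 CPM in the 4 zdna3 libraries and at or above 108 CPM in the other 12, and the zdna3 libraries had 73.0 to 143 CPM of SLC2A1.

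**Figure D4:**
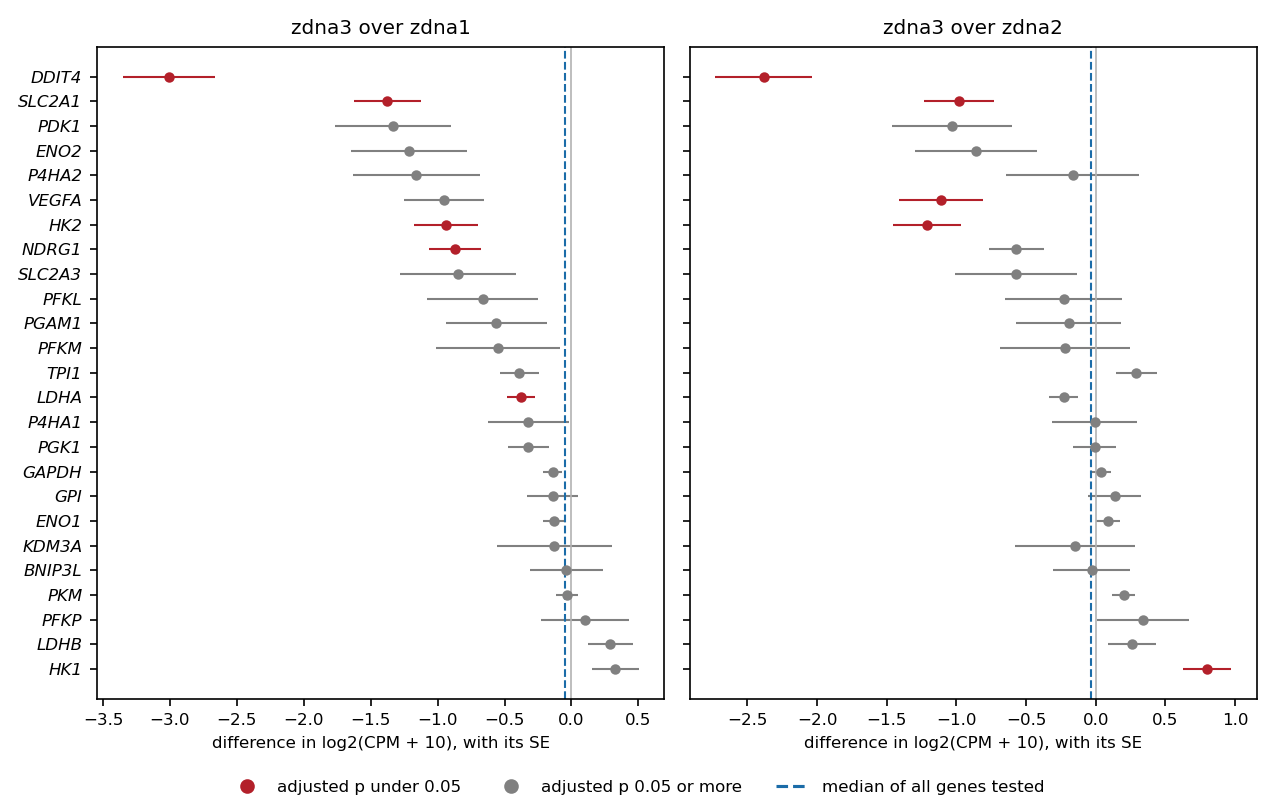
Fitted difference in log2(CPM + 10) with its SE for the 25 tested genes in zdna3 over zdna1 (left) and over zdna2 (right), both averaged over arms. Red points passed adjusted p under 0.05, the dashed line is the median of all genes tested, and the 2 panels share the zdna3 libraries.

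In zdna2 over zdna1, 4 members fell and none rose, against 1.71% of all genes lower and 0.799% higher, and 21 of 25 fitted values were below 0 with a median of -0.30 (all genes 0.00). TPI1, the triosephosphate isomerase that interconverts the products of the split sugar, stood at 692, 690, 649 and 672 CPM in zdna1 and at 495, 451, 377 and 361 in zdna2. It fell by 0.68 (SE 0.11; limma adjusted p = 1.89e-05). The zdna3 and zdna4 libraries, at 499 to 607 CPM, lay between these groups for TPI1. In the CL arm alone TPI1 differed by -0.82 (adjusted p = 0.000145) and in the CC arm alone by -0.54 (adjusted p = 0.286). PKM stood at 2970, 2851, 2961 and 3549 CPM in zdna1 and at 2880, 2658, 2527 and 2404 in zdna2, with 1 library overlapping. It fell by 0.23 (SE 0.06; limma adjusted p = 0.0204), by arm -0.39 in CL (adjusted p = 0.000955) and -0.07 in CC (adjusted p = 0.978). ENO1 stood at 2607, 2281, 2668 and 2598 CPM in zdna1 and at 2158, 2192, 2150 and 2210 in zdna2, without overlap, and fell by 0.22 (SE 0.06; limma adjusted p = 0.0461). ENO1 lost its call in 11 of 16 fits that left out 1 library, with adjusted p up to 0.273 without zdna1 CC replicate 1. PKM lost it in 4 of 16, with adjusted p up to 0.189 without zdna1 CL replicate 2, and TPI1 in none.

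Within the CL arm alone 6 members were lower in zdna2 than in zdna1: TPI1 and PKM as given, LDHA (-0.48, limma adjusted p = 0.00317), PGK1 (-0.60, 0.0147), NDRG1 (-0.74, 0.0175) and GAPDH (-0.27, 0.0172). HK1 and ENO1, called over both arms, were called in neither arm alone (adjusted p = 0.566 and 0.847 in CC, 0.195 and 0.0529 in CL). Within the CC arm no member was called in zdna2 over zdna1. The share of all genes called within 1 arm alone is not given here. Counts of members within 1 arm, here and below, therefore have no all-gene share beside them.

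The comparisons with zdna3 also differed in what each arm alone called. In zdna3 over zdna1 the CC arm called DDIT4, HK2 and NDRG1 and the CL arm DDIT4 and SLC2A1, with SLC2A1 at -1.13 in CC (adjusted p = 0.136) and -1.62 in CL (adjusted p = 0.000398), and LDHA was called in neither. In zdna3 over zdna2 the CC arm called DDIT4, HK2 and NDRG1 (-1.40, adjusted p = 0.00502) and the CL arm DDIT4, SLC2A1 and HK1, and VEGFA was called in neither. In zdna4 over zdna3 the CC arm called DDIT4 and HK2 (2.04, adjusted p = 0.0328) and the CL arm DDIT4, HK1 and NDRG1 (-0.73, adjusted p = 0.0406). Whether these differences between numbers differ between the arms was not tested pair by pair.

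In zdna4 over zdna3, DDIT4 rose and HK1 fell by the share of reads, where 1.84% of all genes rose and 2.91% fell. HK1 had the opposite sign on the deposited scale, as given above. On the scale as deposited all 25 members were called higher, as were 3826 genes against 6 lower. No member was called in zdna4 over zdna1 or in zdna4 over zdna2 by limma, where 0.691% and 2.48% of all genes were. At unadjusted p under 0.05 there were 7 and 3 members, and edgeR's quasi-likelihood test called 1 and 0, DESeq2 0 and 0. The share of all genes that goes with these counts is not given here, so they are not set apart from all genes. The fitted difference with zdna1 was below 0 for 23 of 25 members, with a median of -0.28 against -0.05 over all genes. Within the CL arm alone, 5 members were lower in zdna4 than in zdna1. That contrast leaves out the zdna4 CC libraries that stood apart, but they stayed in the fit that set the scaling, weights and spread. The 5 members were SLC2A1 (-1.26, limma adjusted p = 0.000176), NDRG1 (-1.22), HK2 (-0.78), HK1 (-0.55) and ENO1 (-0.27). In zdna4 over zdna2 the CL arm had 3 lower members, HK2 (-1.14), SLC2A1 (-0.69) and SLC2A3 (-1.17), and 2 higher, TPI1 (0.51) and PKM (0.24). Within the CC arm no member was called in either.

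Between the arms, the calls were few and differed by number. In zdna1, GAPDH was higher in CL, at 5454 and 5368 CPM against 4008 and 4790 in CC. The difference was 0.30 (SE 0.07; limma adjusted p = 0.0234), where 0.497% of all genes rose and 0.259% fell, and it was lost without zdna1 CC replicate 1 (adjusted p = 0.74), zdna1 CL replicate 1 (0.199) or zdna1 CL replicate 2 (0.102). Averaged over the 4 numbers, GAPDH was 0.21 higher in CL (SE 0.05; adjusted p = 0.0361), where 0.345% of all genes rose and 0.0864% fell. That call was lost in 12 of 16 fits that left out 1 library and without all 4 zdna4 libraries (adjusted p = 0.473). In zdna4 itself GAPDH stood at 3616 and 3724 CPM in CC and 4593 and 5126 in CL, a difference of 0.40 (adjusted p = 0.0795).

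In zdna2, LDHA and NDRG1 fell in CL and no member rose, where 0.0864% of all genes fell and 0.0864% rose. LDHA stood at 1696 and 1658 CPM in zdna2 CC and at 1103 and 1134 in zdna2 CL. It fell by 0.58 (SE 0.11; limma adjusted p = 0.00297), while its differences in zdna1, zdna3 and zdna4 were 0.07, 0.12 and -0.04. The test that the 4 arm differences of LDHA are equal gave adjusted p = 0.0441. NDRG1 stood at 462 and 573 CPM in zdna2 CC and at 223 and 275 in zdna2 CL. It fell by 1.03 (SE 0.21; limma adjusted p = 0.00594). Each of these calls was lost without zdna2 CC replicate 1, zdna2 CC replicate 2 or zdna2 CL replicate 1, with adjusted p from 0.101 to 0.157 for LDHA and from 0.0501 to 0.307 for NDRG1. DESeq2 gave adjusted p = 0.0649 for LDHA and 0.098 for NDRG1.

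In zdna4, HK2 and NDRG1 fell in CL and no member rose, where 0.259% of all genes fell and 0.907% rose. HK2 stood at 324 and 475 CPM in zdna4 CC and at 102 and 138 in zdna4 CL, and fell by 1.64 (SE 0.41; limma adjusted p = 0.0331). NDRG1 stood at 540 and 396 CPM in zdna4 CC and at 150 and 205 in zdna4 CL, and fell by 1.35 (SE 0.33; limma adjusted p = 0.0322). Both calls were lost without either zdna4 CC library, with adjusted p from 0.0823 to 0.41, and without zdna4 CL replicate 1 (0.0761 for HK2, 0.0806 for NDRG1). These zdna4 CC levels rested on 30 reads of HK2 and 35 of NDRG1 over both libraries. At the density of reads per kilobase that olfactory receptor exons had there, the exons of HK2 would hold 1.56 reads and those of NDRG1 0.946. SLC2A1 also had higher values in zdna4 CC, with a difference of -1.31 that missed the threshold (adjusted p = 0.111), and LDHB had lower ones, at 216 and 211 CPM against 422 and 411 in CL (difference 0.93, adjusted p = 0.0933).

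In zdna3 no member was called between the arms by limma, where 0.0864% of all genes were called. None of the members had an unadjusted p under 0.05, and edgeR and DESeq2 called none. NDRG1 there was 0.63 in the direction of CL (SE 0.33, adjusted p = 0.75). The test that the 4 arm differences are equal was passed by LDHA and by NDRG1 (adjusted p = 0.00901), 2 of 25 members where 0.864% of all genes did, and HK2 missed it (adjusted p = 0.0853).

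**Figure D5:**
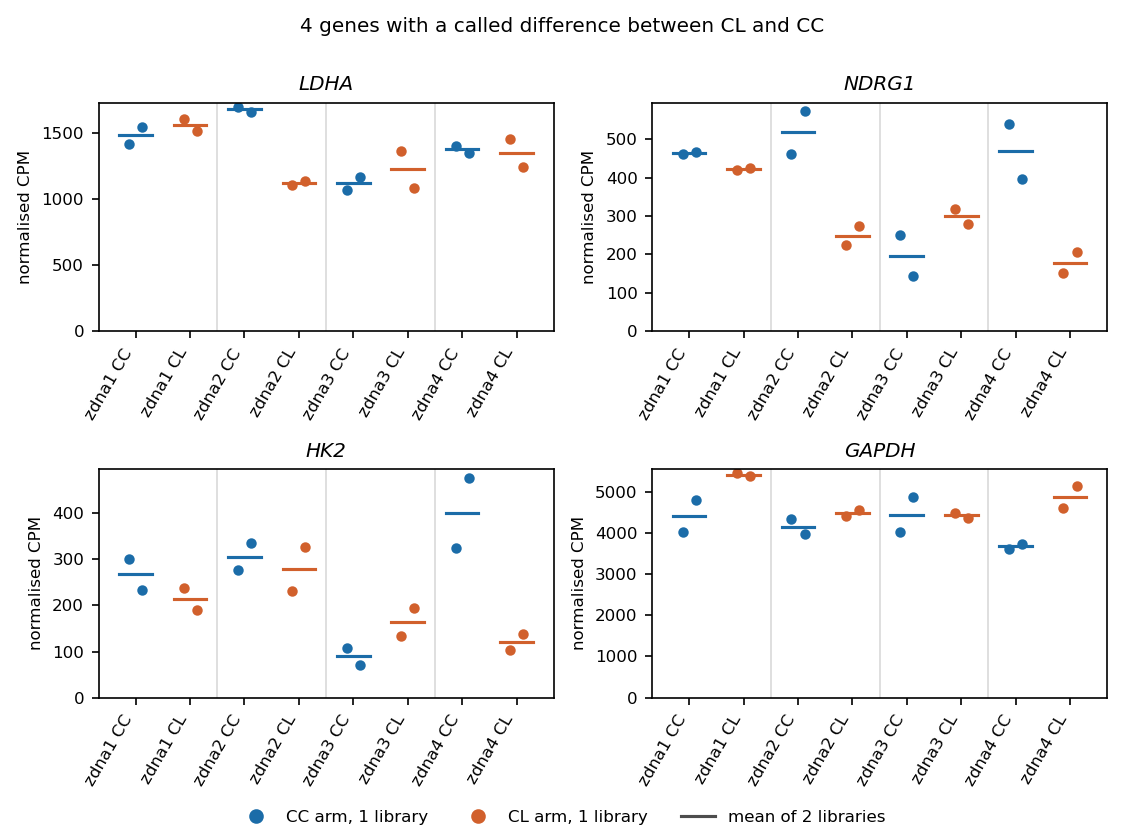
Normalised CPM of LDHA, NDRG1, HK2 and GAPDH in each library, with the mean of 2 libraries as a line, by number and arm. In zdna2, LDHA had lower values in CL (1103 and 1134 against 1696 and 1658 CPM), and NDRG1 had lower values in CL both in zdna2 and in zdna4.

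The 14 tested members called in none of the 13 comparisons were spread over the whole pathway, and 2 of them, PGK1 and SLC2A3, were called within the CL arm alone, as given above. They were the transporter SLC2A3, the isomerase GPI, the phosphofructokinases PFKL, PFKM and PFKP, the kinase PGK1, the mutase PGAM1, the second enolase ENO2, LDHB, the pyruvate dehydrogenase kinase PDK1, which keeps pyruvate out of the mitochondria, the mitophagy receptor BNIP3L, the collagen prolyl hydroxylase subunits P4HA1 and P4HA2, and the histone demethylase KDM3A. PDK1 came closest to a call, at 35.7, 23.8, 26.5 and 12.2 CPM in zdna3 and 79.8, 57.0, 69.8 and 95.1 in zdna1 without overlap, a difference of -1.33 (SE 0.43, adjusted p = 0.0601). In zdna4 CC its 7 reads compare with 4.09 at the olfactory receptor density. The best measured of the 14 were PGK1, which ranged from 363 to 729 CPM with a median of 479, LDHB, from 211 to 523 with a median of 411, and GPI, from 190 to 475 with a median of 391. The others had medians from 53.1 CPM (P4HA2) to 151 CPM (BNIP3L). Exons of PFKM, TPI1 and P4HA2 overlap those of SENP1, SPSB2 and P4HA2-AS1 on the opposite strand. The counting was not stated to use strand, so reads in the shared parts cannot be assigned to 1 gene of a pair.

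The 10 members below the filter were the phosphofructokinase activator PFKFB3, the aldolases ALDOA and ALDOC, the lactate exporter SLC16A3, the vasodilator peptide ADM, the mitophagy gene BNIP3, the carbonic anhydrase CA9, the HIF prolyl hydroxylase EGLN3, ANKRD37 and the sterol regulator INSIG2. Their reads over all 16 libraries ran from 1 (ANKRD37) and 4 (SLC16A3) to 86 (PFKFB3) and 95 (BNIP3). Exons of ANKRD37 and SLC16A3 overlap those of UFSP2 and CSNK1D on the opposite strand, and whether this lowered their counts was not tested. ALDOA, often among the most abundant glycolytic transcripts, had only 40 reads, and its exons overlap those of LOC112694756 on the same strand. CA9 and EGLN3, which are strong targets of the hypoxia-inducible factors, had 0 reads in all 4 zdna3 libraries, where 3 reads of the pooled 260550 correspond to 11.5 CPM. EGLN3 had 22 pooled reads in zdna1, or 37.7 CPM with a 95% exact Poisson interval of 23.6 to 57.0, which lies above that limit. Its 11 pooled reads in zdna2 and 10 in zdna4, whose intervals both reach below 11.5 CPM, did not set it apart from zdna3 at this depth. CA9 had 11 pooled reads in zdna1 (9.40 to 33.7 CPM), 4 in zdna2 and 9 in zdna4, and no difference from zdna3 was detectable. The intervals cover counting error only. BNIP3 had 31, 28, 10 and 26 pooled reads in zdna1 to zdna4, and its rate in zdna1 over zdna3 was 1.38 (95% exact interval 0.661 to 3.16).

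Genes around the list were read from 3 further lists. Of 12 genes of the HIF machinery 8 were tested, of 28 further glycolysis and glucose genes 10, and of 23 further hypoxia response genes 11. In zdna3 over zdna1 the first list had 0 higher and 1 lower, ARNT, the HIF partner (difference -1.79, adjusted p = 0.0118). ARNT stood at 35.7, 0, 13.3 and 48.7 CPM in zdna3 and at 97.5, 74.1, 83.8 and 95.1 in zdna1. The second had 0 higher and 1 lower, PDHA1, a subunit of pyruvate dehydrogenase (-1.72, adjusted p = 0.0236). PDHA1 stood at 0, 0, 53.0 and 24.3 CPM in zdna3 and at 26.6, 74.1, 69.8 and 95.1 in zdna1. The third list had 0 higher and 1 lower, ZNF395 (-1.36, adjusted p = 0.0178). The medians of the 3 lists were 0.16, -0.01 and 0.15, against -0.05 over all genes and -0.39 over the 25 members. HIF1A was not called in zdna3 over zdna1. It was higher in zdna2 than in zdna1, at 479, 458, 537 and 544 against 372, 376, 321 and 241 CPM (0.62, adjusted p = 0.00121). The called members TPI1, HK1, PKM and ENO1 fell in that comparison, and a link between HIF1A and these members was not tested.

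In zdna3 over zdna2 the lists of the HIF machinery and of further glycolysis genes each had 1 lower, HIF1AN (-0.97) and PDHA1 (-1.66), and the further hypoxia genes had 1 higher, the transferrin receptor TFRC (1.21). In zdna2 over zdna1, PLOD1, a collagen lysyl hydroxylase, was lower (-0.85), and in zdna4 over zdna2 it was higher (1.18). BHLHE40 was lower in zdna4 than in zdna3 (-0.99). Between the arms, the 3 lists had 1 call in all, the coactivator EP300, lower in CL of zdna1 (-0.87). In the test of any difference among the numbers, the lists had 2, 1 and 1 calls, HIF1A (adjusted p = 0.00236), ARNT (0.021), PDHA1 (0.048) and PLOD1 (0.00186).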

How the data were processed

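RNA from U2OS cells was sequenced in 16 libraries, 8 groups of 2 by number and arm. The authors counted exon reads per gene with featureCounts 2.0.1, without a strand option, on hg19 plus 1 extra sequence per number, per the file headers. The submitters' processing notes name Trim Galore 0.6.6, STAR and bedtools 2.29.2, and the builds hg19 and dm6. The deposited values are a signal: whole reads times 1 constant per library, whose origin is not given in the sources used here. Dividing by the constant gave whole reads for 100% of nonzero values (within 0.1 read). The main test was limma 3.58.1 (R 4.3.3; trend, array weights per group, two-sided) on log2(CPM + 10), scaled by TMM (edgeR 4.0.16) on the 4632 genes averaging 50 CPM or more, in 1 fit of 8 group means. Calls are Benjamini-Hochberg adjusted p under 0.05 within a comparison. On the recovered reads, edgeR's quasi-likelihood test called 490 genes for any difference among numbers (limma 410), and DESeq2 1.42.0 was another alternative. Other alternatives changed weights, scaling, pseudocount, filter, replicate block and libraries. Comparisons within each arm, taken from the same fit of all 16 libraries, were added after seeing the data. The fit was tested on simulated data.

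Every member was to be accounted for, those called in any comparison in full, and genes of other lists named only where called. 1 gene of the further hypoxia list is not reported here and was left out of its counts. The members and lists were chosen with earlier results of these data known. Replicates of zdna2 CC, zdna3 CC and zdna3 CL did not differ beyond counting noise over genes (chi-square p = 0.378, 0.679 and 0.0739), but the share of reads on the extra sequence differed within all 8 pairs (p at most 0.00181), so they were kept as 2 libraries. Human coordinates of promoters come from RefSeq on GRCh38.p14 and were not mixed with hg19.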

Additional observations from a re-analysis of the deposited data

Results flagged for a closer look

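The arm difference of LDHA, the lactate dehydrogenase subunit that favours lactate, was not the same in the 4 numbers: the test that the 4 differences are equal gave adjusted p = 0.0441 (limma), with -0.58 in zdna2 and 0.07, 0.12 and -0.04 in zdna1, zdna3 and zdna4. That of NDRG1 also differed between the numbers (limma adjusted p = 0.00901), at -1.03 in zdna2 and -1.35 in zdna4 against -0.14 in zdna1 and 0.63 in zdna3. The LDHA result missed the threshold in 18 of its 25 alternatives, and the NDRG1 result missed it in 4 of 25, among them without zdna2 CC replicate 2 (0.0562), zdna3 CC replicate 2 (0.0701) or zdna4 CC replicate 1 (0.0643).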

How the results depend on the processing

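Values here are counts of the 25 tested members called, with the main count first where settings moved it by over 1.5 times. Without array weights the arm counts went from 1 to 0 in zdna1, from 2 to 0 in zdna2, from 2 to 5 in zdna4 and from 1 to 0 for the average. Those of the numbers went from 4 to 1 in zdna2 over zdna1 and from 2 to 6 in zdna4 over zdna3. DESeq2 called 0 in zdna1 and zdna2, 2 for the average, 1 for equality of the arm differences, 2 in zdna2 over zdna1, 3 in zdna3 over zdna1, 3 in zdna3 over zdna2 and 1 in zdna4 over zdna3. edgeR called 4 between the arms of zdna4 and 1 in zdna4 over zdna1. A pseudocount of 2 CPM gave 0 in zdna1, 0 in zdna4, 0 for the average, 1 for equality and 1 in zdna4 over zdna3. Testing every gene with a read gave 0 in zdna1, zdna2 and equality, 1 in zdna2 over zdna1, 8 in zdna3 over zdna1, 1 in zdna4 over zdna1 and 0 in zdna4 over zdna3. TMM over every human gene gave 5 between the arms of zdna4 (4 higher and 1 lower, against 0 and 2), 3 for the average, 4 for equality, 1 in zdna2 over zdna1, 11 in zdna3 over zdna1, 5 in zdna4 over zdna1 and 4 in zdna4 over zdna2. The scale as deposited gave 1 in zdna2, 12 in zdna3 (12 higher), 9 for the average, 10 for equality, and 25 each for any difference, zdna3 over zdna1, zdna3 over zdna2 and zdna4 over zdna3. There HK1 changed sign in zdna3 over zdna2 (-0.70) and in zdna4 over zdna3 (0.88). The 4 zdna4 libraries alone gave 0 between their arms, and leaving out all 4 gave 0 for the average. The CC arm alone gave 3 for any difference, 0 in zdna2 over zdna1, 3 in zdna3 over zdna1 and 3 in zdna3 over zdna2. The CL arm alone gave 2 in zdna3 over zdna1, 3 in zdna3 over zdna2, 5 in zdna4 over zdna1 and 5 in zdna4 over zdna2. Both arm settings were chosen after seeing the data. The cause of these moves was not tested. The share of all genes called under each setting is not given here. These counts are therefore not set apart from all genes. On the scale as deposited, most tested genes were called in the members' direction in zdna3 over zdna1, zdna3 over zdna2 and zdna4 over zdna3.

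Replicate numbers did not pair the samples: over 28 pairs of groups the correlation of deviations ran from -0.0703 to 0.0589. With the replicate block the average arm count was 0 and the equality count 1.

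Leaving out 1 library at a time gave 0 to 1 members in zdna1, 0 to 2 in zdna2, 0 to 0 in zdna3, 0 to 2 in zdna4, 0 to 1 for the average, 0 to 3 for equality and 6 to 10 for any difference. It gave 1 to 5 in zdna2 over zdna1, 2 to 6 in zdna3 over zdna1, 4 to 5 in zdna3 over zdna2, 0 to 0 in zdna4 over zdna1 and over zdna2, and 1 to 2 in zdna4 over zdna3. In these fits each group, also one left with 1 library, kept its weight of the whole fit, so the lone library is assumed to vary as its group did. This handling was chosen after seeing the data and gives narrower ranges than the one first used, which estimated the weights again and gave the lone library weight 1. With that first handling the ranges were 0 to 1 in zdna1, 0 to 2 in zdna2, 0 to 4 in zdna3, 0 to 6 in zdna4, 0 to 2 for the average, 0 to 5 for equality and 6 to 13 for any difference. They were 1 to 5 in zdna2 over zdna1, 3 to 10 in zdna3 over zdna1, 3 to 8 in zdna3 over zdna2, 0 to 5 in zdna4 over zdna1, 0 to 1 in zdna4 over zdna2 and 1 to 6 in zdna4 over zdna3. All genes called between the arms of zdna4 then ranged from 8 to 742.

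Depth limits all of this: 1 read was worth up to 25.4 CPM, so a member near 50 CPM rested on a few reads in the shallow zdna3 and zdna4 CC libraries.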
